A study of Mus musculus with 40 samples.

Results

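The effect of TGFβ was measured in cardiac fibroblasts in which the gene for the kinase TAK1 had been deleted by Cre. The groups compared were fibroblasts of TAK1 fl/fl mice transduced with iCre adenovirus and given TGFβ (4 libraries), and such cells given that virus and no ligand (CTRL, 4 libraries). These are 8 of the study's 40 libraries. Every gene with a summed count of 10 or more across those 40 libraries was tested, which left 25210 of the 55414 genes counted (16762 of them protein-coding), and no gene entered the test by its response. The genes named below were picked in part by their fold changes, by the rule given with the processing.

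The study addressed how TAK1 shapes the responses of cardiac fibroblasts to ligands that appear in the injured heart. RNA from 10 groups, each a combination of LacZ or iCre adenovirus with bFGF, TGFβ, IL-1β, TNFα or none of these ligands, was sequenced. All cells came from adult hearts with the floxed TAK1 allele on the C57BL/6J background, were used at passage 1 after growth in medium that contained serum and bFGF, and were starved of serum during the treatment, which was 10 ng/ml of TGFβ for 24 h or none. The 4 LacZ CTRL and 4 LacZ TGFβ libraries (floxed allele kept) serve below to test whether the effect of TGFβ differed with the deletion. Cre excises exon 2 of Map3k7, which encodes the ATP-binding site of the kinase. The virus was given to whole cultures under a CMV promoter, so any cell that escaped recombination is part of these libraries, and the RNA is that of all cells in the dish. The study describes the RNA samples as biological replicates from male mice, the labels number them without naming hearts, and p-values measure the spread between these samples.

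TGFβ binds type II and type I receptor kinases, which phosphorylate SMAD2 and SMAD3. These join SMAD4 and enter the nucleus, where they raise many genes, their own inhibitors among them. In the heart, TGFβ is best known for turning resting fibroblasts into myofibroblasts, contractile cells that lay down collagen and other matrix. TAK1 (mitogen-activated protein kinase kinase kinase 7, gene Map3k7) is a kinase that TGFβ, IL-1 and TNF receptors can engage, and it leads to the p38 and JNK kinases and to NF-κB.

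Transcripts of Map3k7 (ENSMUSG00000028284, chr4:31964097-32023467, plus strand of GRCm38) were still counted in every iCre library, as reads over all exons count whether or not exon 2 is present. Levels are given as CPM, reads of a gene relative to the library's total count, scaled by the TMM factors of 16 libraries, always in the order of replicates 1 to 4. In iCre CTRL libraries Map3k7 stood at 124, 116, 119.8 and 128 CPM, and in iCre TGFβ libraries at 146, 119, 141 and 148 CPM. In LacZ libraries it stood at 151, 135, 150.2 and 155 CPM without ligand and at 228, 215, 217 and 223 CPM with TGFβ. The difference, iCre minus LacZ, was -0.28 on the log2 scale in CTRL (adjusted p = 0.0108) and -0.67 with TGFβ (adjusted p = 0.000428). The CTRL difference passed the threshold only with replicate numbers as a block (adjusted p = 0.126 without it), and missed it without replicate 3 (0.0867) or replicate 4 (0.0857). The deleted exon itself cannot be read from these gene-level counts.

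Total counts were 25360947 to 45258832 in the iCre CTRL and 31821570 to 43002391 in the iCre TGFβ libraries, so counting error was small for all but genes of a few CPM. Replicate 2 stood apart from the other replicates for many genes in both groups (for example Col12a1, Tgfbr3 and Itga8 below). Of the 16 iCre and LacZ libraries with TGFβ or no ligand, the 4 iCre TGFβ libraries also differed from the other 12 in their dependence on GC content. The slope of log2 CPM against transcript GC content was 0.27 to 0.29 per 10% GC in the 4 iCre TGFβ libraries, against -0.08 to -0.0095 in iCre CTRL, -0.11 to -0.096 in LacZ CTRL and -0.14 to -0.10 in LacZ TGFβ libraries (12192 genes). As this property and the TGFβ treatment of iCre cells coincide, their parts in a difference cannot be told apart, and GC-corrected values are given beside named fold changes with TGFβ whose call the correction ended or which it moved by over 1.5 times. All 10 fibroblast markers averaged at least 1 CPM, and they summed to 19777 to 35582 CPM in CTRL and 43981 to 57063 CPM with TGFβ. Col1a1 made up 19178 to 23756 CPM of the latter, and of the 10 markers 3 rose and 6 fell (median -0.50). Of the markers of other cells, 4 lists were low in both groups: 14.0 to 20.8 against 8.01 to 12.0 CPM for 8 endothelial genes, 34.8 to 93.9 against 20.3 to 68.8 CPM for 10 leukocyte and macrophage genes, 8.11 to 44.1 against 4.90 to 13.1 CPM for 8 cardiomyocyte genes (Actc1 at 0 in all 8 libraries), and 5.39 to 12.9 against 3.96 to 11.1 CPM for 8 epicardial and mesothelial genes. Pericyte markers (769 to 1503 against 1791 to 3155 CPM) and Schwann and neural markers (26.2 to 35.9 against 306 to 344 CPM) were higher and are described below. The part of these cells in the results was not tested.

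TGFβ changed many genes of TAK1-deleted fibroblasts: 5207 genes rose (20.7% of those tested) and 5455 fell (21.6%), 42.3% in all, by edgeR's quasi-likelihood test with the replicate number as a block and a Benjamini-Hochberg adjusted p of at most 0.05. Of these, 2001 rose and 3044 fell by at least 1 on the log2 scale, and the median log2 fold change over all genes tested was -0.11. Most calls were among better expressed genes: of the 12913 genes that averaged 1 CPM or more in the iCre libraries, 36.9% rose and 33.3% fell, 70.2% in all, with a median of 0.043, and most members of the lists below were at that level. In bulk RNA, fewer cells of a kind and less RNA per cell cannot be told apart. Below, a fold change is on the log2 scale, TGFβ over CTRL, and "rose" and "fell" are used only for genes past that threshold. The value after ± is an approximate standard error, the absolute fold change divided by the square root of the test's F statistic. For genes with few reads in a group it can understate the counting error. After GC correction, 4570 of the genes that rose and 4654 of those that fell kept their call and direction, and 68 that fell were called as risen.

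The largest rises and falls were ranked among 7065 protein-coding genes that averaged at least 1 CPM over the 8 iCre libraries, were called, had groups that did not overlap and moved the same way in all 4 pairs. Several of the 10 largest rises began from almost no transcript. Acan, the core protein of the cartilage proteoglycan aggrecan, had 0.0315, 0, 0.0570 and 0.0669 CPM in CTRL (6 reads over the group) and 34.0, 89.8, 109 and 43.4 CPM with TGFβ, a fold change of 10.77 ± 0.26. Fgf21, an endocrine growth factor, went from 0.0630, 0, 0.0759 and 0.0669 to 23.4, 35.0, 22.7 and 23.2 CPM (8.84 ± 0.24). Gpbar1, a bile acid receptor, went from 0.0630, 0, 0.0190 and 0.1004 to 16.04, 3.67, 22.3 and 24.6 CPM (8.63 ± 0.25, or 8.02 without replicate 3). In each of these 3 genes the lowest TGFβ library lay far above the highest CTRL library, though the ranking itself required groups that did not overlap. Wnt1, a secreted WNT ligand, and Prss46, a serine protease gene, had no read in any iCre CTRL library. With TGFβ, Wnt1 was at 4.28, 1.08, 2.25 and 4.31 CPM and Prss46 at 1.60, 1.08, 3.62 and 3.16 CPM, at least 154-fold and 119-fold higher, taking 3 counts over the CTRL group as the floor. C1qtnf3, a secreted C1q and TNF related protein, was at 0.441, 1.13, 0.323 and 0.402 CPM in CTRL and at 49.0, 2456, 82.2 and 38.8 CPM with TGFβ. Its value hung on replicate 2, since the fold change of 9.46 ± 0.67 became 7.34 without it. Cdh10, a type II cadherin with a low GC content of 33.8%, rose by 7.18 ± 0.32 (8.44 after GC correction, 6.42 without replicate 3 and 8.01 without replicate 4), and Ctsw, a cysteine protease of lymphocytes, rose by 6.79 ± 0.29 from 7 reads in CTRL.

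The 10 largest falls, ranked among the same genes, ranged from -6.40 to -5.55. Scara5, a ferritin receptor of quiescent fibroblasts, stood at 222, 67.8, 174 and 187 CPM in CTRL and at 3.43, 1.57, 2.46 and 5.97 CPM with TGFβ (-5.58 ± 0.20). Clec3b, the plasminogen-binding protein tetranectin, went from 81.2, 8.40, 29.3 and 15.6 to 1.64, 0.175, 0.211 and 0.161 CPM (-5.97 ± 0.20). Galnt15, a glycosyltransferase that starts mucin-type O-glycans, went from 14.1, 12.5, 8.13 and 7.496 to 0.220, 0.0350, 0.0352 and 0.161 CPM (-6.40 ± 0.27). That the groups of these 3 did not overlap was required by the ranking. Enzymes of alcohol and aldehyde oxidation were also among the 10 largest falls: Aldh3a1 went from 29.3, 13.8, 51.3 and 25.5 to 0.818, 0.490, 0.176 and 0.294 CPM (-5.97 ± 0.33). Adh1 had 3.72, 36.7, 2.64 and 2.21 CPM in CTRL, with replicate 2 far above the others, and 0 to 0.315 CPM with TGFβ (-6.24 ± 0.41, or -5.20 without replicate 2). Cyp2f2, a cytochrome P450, likewise rested on replicate 2 (0.126, 10.2, 0.475 and 0.268 CPM in CTRL), with -5.80 ± 0.66 in the fit, -3.06 without that replicate and -6.51 without replicate 1. The other 4 were Stk32b (-5.57), a serine/threonine kinase, Aspa (-5.55, -4.86 after GC correction), which cleaves N-acetylaspartate, Rhov (-6.13, -6.73 without replicate 3), an atypical small GTPase, and 1110032F04Rik (-6.17, -6.82 without replicate 4).

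**Figure D1:**
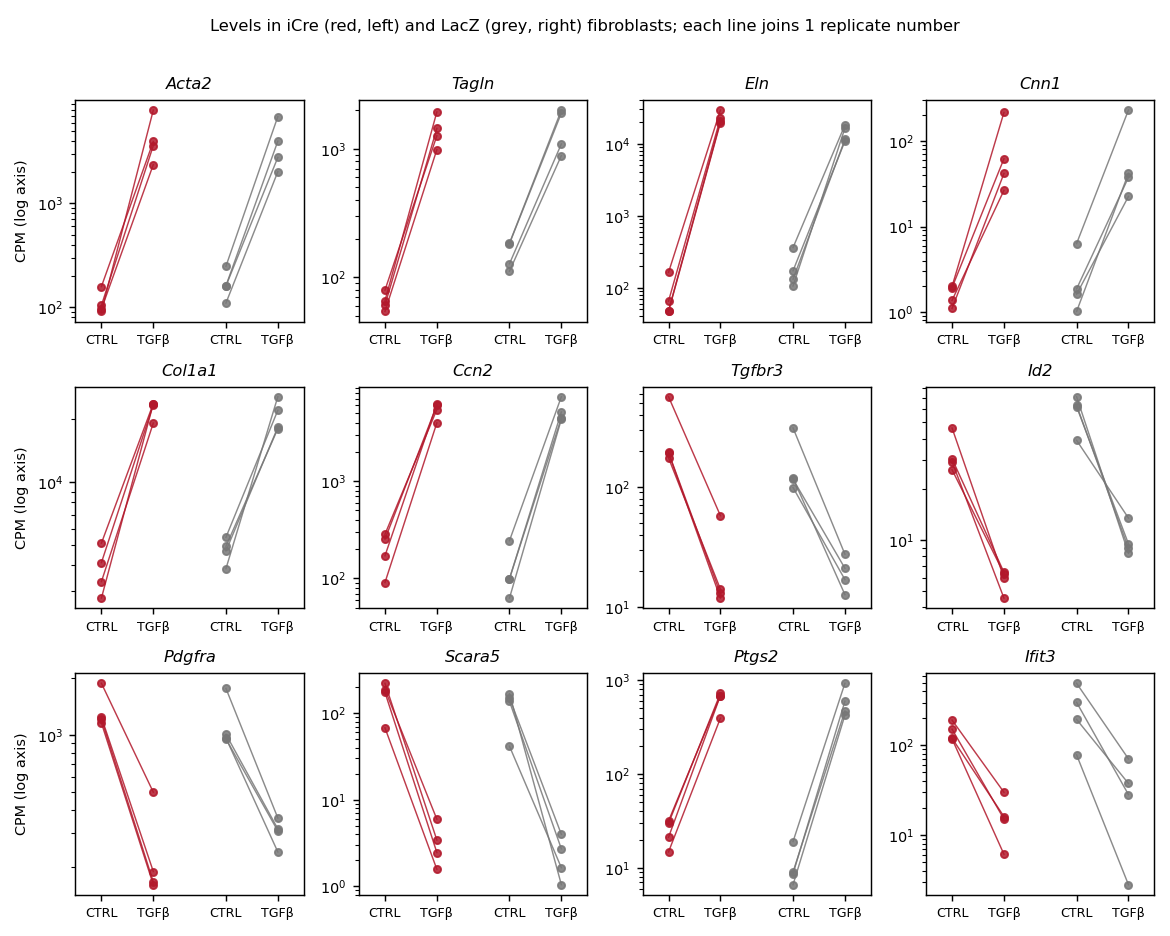
CPM of 12 genes in every iCre (red) and LacZ (grey) library on log axes, without ligand (CTRL) and with TGFβ, with a line joining the libraries of each replicate number. In the iCre libraries Acta2, Tagln, Eln, Cnn1, Col1a1, Ccn2 and Ptgs2 rose and Tgfbr3, Id2, Pdgfra, Scara5 and Ifit3 fell in all 4 pairs. Acta2 lay at 91.0 to 158 CPM in CTRL and at 2363 to 7908 CPM with TGFβ.

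The smooth muscle contractile genes, which build the stress fibres of myofibroblasts, held more rises than falls. Of 20 tested, 16 rose, 2 fell and 2 were not called, with a median fold change of 1.68 against -0.11 over all genes tested. Acta2 (ENSMUSG00000035783, chr19:34241090-34255590, minus strand), the α-smooth muscle actin by which myofibroblasts are recognised, stood at 104, 91.0, 158 and 96.0 CPM in CTRL and at 3601, 7908, 3941 and 2363 CPM with TGFβ. No TGFβ library came near the CTRL range, and the fold change was 5.21 ± 0.32 (adjusted p = 7.57e-06). Tagln (SM22α), an actin cross-linker, went from 60.8, 65.7, 79.4 and 54.1 to 1438, 1932, 1262 and 985 CPM (4.43 ± 0.16). Cnn1, the actin-binding protein calponin, went from 1.10, 1.998, 1.94 and 1.37 to 41.7, 215, 62.0 and 26.4 CPM (5.47 ± 0.34). For Acta2 and Cnn1 alike, replicate 2 had the highest level with TGFβ and replicate 4 the lowest. Actg2, the enteric smooth muscle actin, rose by 5.08 ± 0.28 (5.76 without replicate 3), Myl9, the regulatory myosin light chain, by 3.04 ± 0.28, and Actn1, the α-actinin that anchors stress fibres, by 2.71 ± 0.11. Mylk, the kinase of that light chain, and Synpo2, an actin-bundling protein, were the members that fell. Mylk was at 13.0, 75.6, 5.37 and 3.95 CPM in CTRL and 3.11, 42.5, 1.79 and 0.963 CPM with TGFβ, so that replicate 2 was above every other library of its group, and its call (fold change -1.44 ± 0.21) was lost without the replicate block (adjusted p = 0.551). Synpo2 went from 37.3, 15.3, 26.8 and 22.3 to 12.7, 12.9, 9.56 and 6.34 CPM (-1.25 ± 0.23).

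The 250 bases before the RefSeq start of 3 genes that rose are shown because they hold letters that SMAD proteins or serum response factor (SRF, the transcription factor that drives contractile genes) are known to bind. Capitals mark these letters, and the others are in lower case, 5′ to 3′ on the strand of the gene, from RefSeq on GRCm38.p6. Acta2 (chr19:34255374-34255623, minus strand) holds CAGACA, a SMAD-binding element, read on the opposite strand as TGTCTG and beginning at base -236 from the start. It also holds the CArG box, the binding sequence of SRF, with 1 letter of its A/T core changed, at -84 and at -34, elements at which SRF is known to bind in this promoter. Myl9 (chr2:156775214-156775463, plus strand) holds an unchanged CArG box at -161 and one with 1 core letter changed at -99. Srf itself (chr17:46556163-46556412, minus strand) holds an unchanged CArG box at -82 and at -62.
Acta2: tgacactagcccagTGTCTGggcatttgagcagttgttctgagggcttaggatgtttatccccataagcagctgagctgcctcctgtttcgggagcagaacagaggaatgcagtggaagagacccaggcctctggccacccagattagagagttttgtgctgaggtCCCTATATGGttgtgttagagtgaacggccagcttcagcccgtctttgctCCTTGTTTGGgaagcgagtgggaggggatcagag
Myl9: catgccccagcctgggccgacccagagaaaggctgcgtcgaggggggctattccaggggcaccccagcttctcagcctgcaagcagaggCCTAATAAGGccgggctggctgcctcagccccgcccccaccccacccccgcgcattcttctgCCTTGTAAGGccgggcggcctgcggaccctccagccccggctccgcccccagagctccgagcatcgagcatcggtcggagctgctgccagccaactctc
Srf: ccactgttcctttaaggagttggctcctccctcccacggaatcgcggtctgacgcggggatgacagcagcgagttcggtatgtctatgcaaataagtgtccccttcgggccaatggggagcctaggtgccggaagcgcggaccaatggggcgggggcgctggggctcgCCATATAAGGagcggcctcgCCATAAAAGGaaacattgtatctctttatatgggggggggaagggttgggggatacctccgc
Of 40 named genes that rose, taken from the contractile, collagen chain, glycoprotein, protease, SMAD and transcription factor lists, 23 matched a promoter entry. A gene was counted where any of its entries held the letters. CAGACA stood on either strand in 7 of the 23 (Acta2, Col1a2, Col5a1, Col7a1, Smurf1, Tgif1 and Thbs4), against 19.3% of all 27025 genes with an entry, counted likewise (17.1% of the 32851 entries). The CArG box with no change stood in 2 (Myl9 and Srf) against 1.62% of genes. With exactly 1 core letter changed, a search added after seeing the data, it stood in 6 (Acta2, Adamts12, Col1a2, Myl9, Tgif1 and Timp3) against 8.33%. The AP-1 letters TGACTCA stood in 1 (Plaur) against 5.16%, and the SMAD palindrome GTCTAGAC in 0 against 0.1998%. These are matches of letters in a window, which do not show that a protein bound there.

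Of 11 fibrillar collagen genes 8 rose, none fell and 3 were not called (median 1.59). Col1a1, the α1 chain of type I collagen, was at 5110.1, 2790.1, 4124 and 3346 CPM in CTRL and 23756, 23743, 23456 and 19178 CPM with TGFβ, a fold change of 2.61 ± 0.14. The groups did not overlap, and the lowest TGFβ library was replicate 4. Col5a2 of type V collagen went from 1743, 1104, 1124 and 1103 to 8859, 9292, 8499 and 7751 CPM (2.81 ± 0.12), and Col11a1 of type XI from 204, 113, 240.1 and 196 to 1219.8, 1639, 1606 and 1035 CPM (2.91 ± 0.23). Col1a2 rose by 1.59 ± 0.11 and Col5a1 by 2.34 ± 0.079. Col2a1, the collagen of cartilage, rose by 3.82 ± 0.40, though its group ranges overlapped (10.1 to 82.4 against 61.7 to 1093 CPM). Col3a1, the main chain of type III collagen, had 15611, 6488, 8841 and 7700.2 CPM in CTRL and 14146, 12523, 8293 and 7896 CPM with TGFβ, overlapping ranges with an adjusted p of 0.376.

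Of 26 other collagen chains 9 rose and 10 fell (median -0.25). Col8a2, a short-chain network collagen, went from 1.20, 0.579, 0.645 and 0.636 to 40.5, 127, 45.4 and 35.8 CPM (6.26 ± 0.32). Col7a1, which forms anchoring fibrils, went from 7.31, 9.32, 7.33 and 6.89 to 266, 141, 274 and 308 CPM (4.98 ± 0.25). Col12a1, a fibril-associated collagen, was at 53.1, 201, 74.5 and 53.2 CPM in CTRL and 755, 3175, 866 and 655 CPM with TGFβ, with replicate 2 highest in both groups and all 4 pairs higher with TGFβ (3.77 ± 0.10). Col6a6 went the other way, from 3.62, 1.62, 1.14 and 2.51 to 0.283, 0, 0.0703 and 0.0803 CPM (-4.31 ± 0.38, or -5.00 without replicate 1).

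Genes whose products modify and cross-link collagen rose in 21 of 27 cases, with 1 fall and a median of 1.45. Lox, the lysyl oxidase that cross-links collagen and elastin, was at 901, 828, 562 and 620.3 CPM in CTRL and 5671, 11583, 6496 and 5218 CPM with TGFβ (3.29 ± 0.18). The related Loxl4 and Loxl3 rose by 2.77 ± 0.091 and 2.53 ± 0.12. P4ha2 and P4ha3, prolyl hydroxylases that stabilise the collagen helix, rose by 2.63 ± 0.27 and 2.28 ± 0.29, and Tll1, a procollagen C-proteinase, by 2.28 ± 0.14. The fall was of Adamts14, a procollagen N-proteinase, from 7.59, 24.5, 10.1 and 10.9 to 3.08, 13.8, 3.94 and 6.69 CPM (-0.99 ± 0.13), overlapping ranges whose call was lost without the replicate block (adjusted p = 0.167).

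Among 25 matricellular and adhesive glycoproteins 17 rose and 4 fell (median 1.44). Eln (ENSMUSG00000029675, chr5:134702593-134747323, minus strand), the elastin precursor, was among the 10 largest rises, ranked as above, from 163, 65.1, 46.7 and 47.8 CPM in CTRL to 29382, 22618, 19617 and 20441 CPM with TGFβ (8.37 ± 0.26, adjusted p = 6.38e-07). Replicate 1 was the highest of the CTRL libraries, and all 4 TGFβ libraries lay far above it. Ccn2 (connective tissue growth factor) went from 253, 90.8, 171 and 284 to 6018, 3965, 6195 and 5435 CPM (4.89 ± 0.21). Its relatives Ccn4 and Ccn5 rose by 5.30 ± 0.33 and 3.55 ± 0.31, and Thbs4, a thrombospondin, rose by 3.46 ± 0.48 from a CTRL range of 0 to 0.234 CPM (4.13 without replicate 3). Tnxb, the tenascin of loose connective tissue, fell from 222, 74.3, 96.8 and 85.4 to 11.9, 6.37, 5.76 and 5.59 CPM (-3.93 ± 0.12).

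The proteoglycans split, with 4 rises and 7 falls among 14 (median -0.84, or -0.35 after GC correction). Acan, described above, was the largest rise. Ogn (osteoglycin), a small leucine-rich proteoglycan, went from 558, 1239, 569 and 304 to 22.7, 121, 15.0 and 9.85 CPM, with replicate 2 highest in both groups. Its transcript has a GC content of 36.3%, and its fold change of -4.49 ± 0.30 became -3.53 after GC correction. Lum (lumican) went from 496, 239, 392 and 404 to 63.5, 26.7, 37.2 and 61.4 CPM (-3.03 ± 0.11), and Omd (osteomodulin) fell by 3.91 ± 0.22 (-2.94 after GC correction). Dcn (decorin), a collagen-binding proteoglycan that also binds TGFβ, went from 1991, 822, 1201 and 1318 to 613, 179.8, 301 and 499 CPM, -1.79 ± 0.12 in the fit and -0.96 after GC correction. Prelp fell by 1.84 ± 0.13 with overlapping ranges (139.6 to 771 against 45.9 to 257 CPM).

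Of 28 proteases and inhibitors 11 rose and 13 fell (median -0.058, or 0.0078 after GC correction). More members fell than rose, though all those named next were rises. They were taken for the size of their change among members at 1 CPM or more. The metalloproteinase inhibitors Timp3 and Timp1 rose by 3.06 ± 0.14 and 2.57 ± 0.093. Plaur, the urokinase receptor, rose by 3.05 ± 0.14, and the metalloproteinases Adamts12 and Adam12 by 2.82 ± 0.071 and 2.53 ± 0.34.

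**Figure D2:**
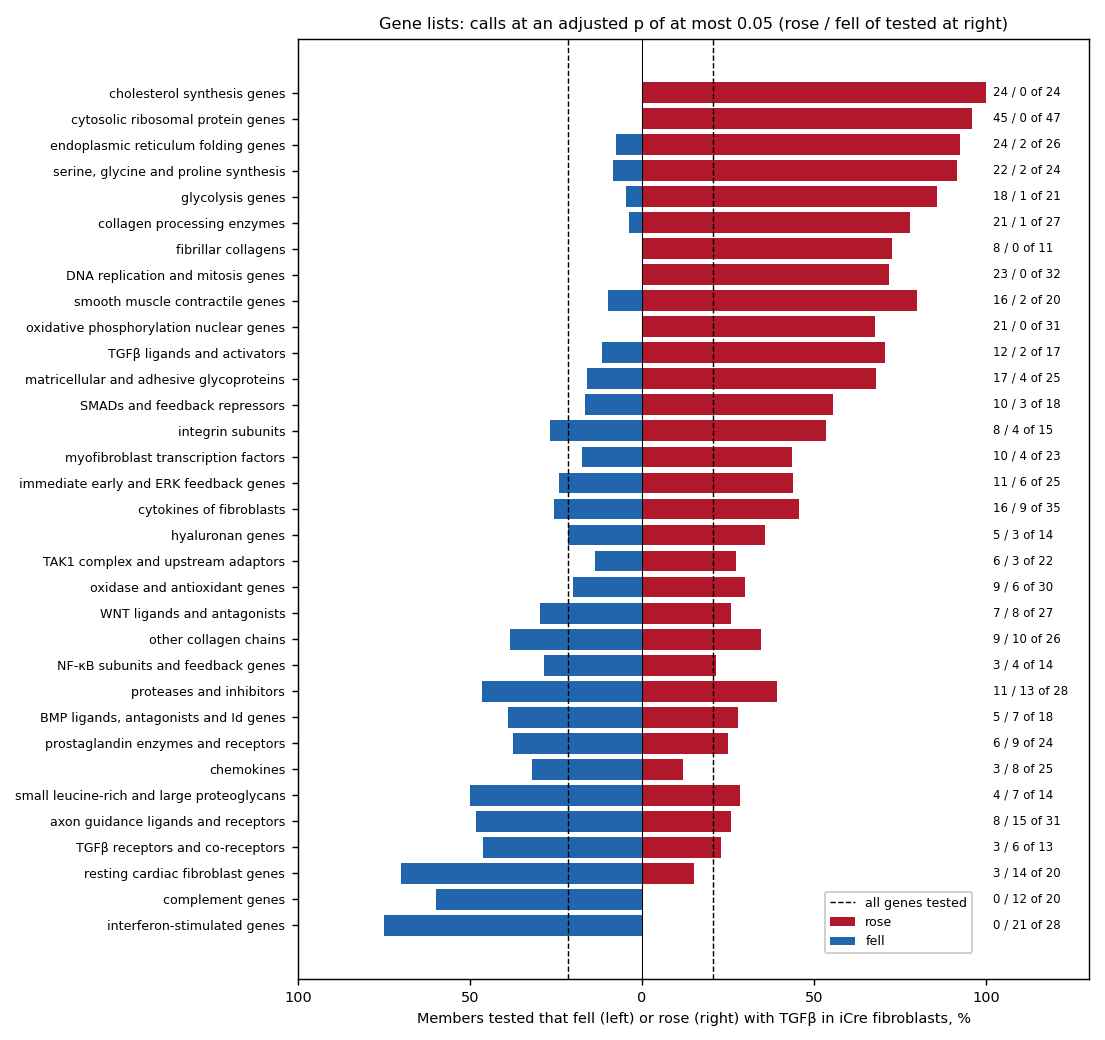
For each of 33 gene lists, the share of tested members that fell (blue, left) and rose (red, right) with TGFβ in iCre fibroblasts, in percent, with the numbers at the right and dashed lines at the shares of all genes tested (21.6% and 20.7%). All 24 cholesterol synthesis genes rose, and 0 of 28 interferon-stimulated genes did, while 21 of them fell.

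Genes of the TGFβ pathway itself were called at each level, from ligands to repressors, at shares near or above that of all genes. Of members at 1 CPM or more, 86.7% of ligands and activators, 69.2% of receptors and 72.2% of SMADs and repressors were called. The share was 85.7% for the BMP list and 70.2% for all genes at that level. Of 17 ligands and activators 12 rose and 2 fell (median 0.92). Tgfb1 was at 44.0, 36.0, 36.4 and 41.0 CPM in CTRL and 290.3, 106, 250.3 and 369.5 CPM with TGFβ, with replicate 2 the lowest of the TGFβ libraries (2.596 ± 0.24). Tgfb3 rose by 1.19 ± 0.09 and Tgfb2 by 0.62 ± 0.13, the latter with overlapping ranges (18.7 to 33.9 against 27.7 to 67.0 CPM) and no call without the replicate block (adjusted p = 0.0876) or in a fit of all 40 libraries (0.0783). All 4 latent TGFβ binding proteins, which hold the ligand in the matrix, rose: Ltbp2 from 165, 346, 209 and 291 to 3531, 4893, 3417 and 4112 CPM (4.05 ± 0.13), Ltbp4 by 1.05 ± 0.09, Ltbp1 by 0.92 ± 0.077 and Ltbp3 by 0.81 ± 0.10. The activin subunits parted, since Inhba rose by 2.14 ± 0.14 and Inhbb fell from 29.7, 119, 39.1 and 40.2 to 9.66, 6.51, 7.03 and 7.12 CPM (-2.65 ± 0.35). Of the integrin chains that activate latent TGFβ, Itgb5 rose by 1.89 ± 0.088 and Itgav by 0.77 ± 0.14. Itgb8 went from 26.1, 20.2, 17.9 and 20.5 to 19.1, 10.3, 12.0 and 7.73 CPM, -0.81 ± 0.16 in the fit with a GC content of 40.4%, and its call was lost after GC correction (-0.34, adjusted p = 0.145). Gdf15, a stress-induced ligand, rose by 1.17 ± 0.16. The rises include Mstn (myostatin) only through replicate 2, since it stood at 0, 0.0869, 0 and 0 CPM in CTRL and 0, 5.42, 0 and 0 CPM with TGFβ and DESeq2 did not call it (adjusted p = 0.777). Lrrc32, Gdf11 and Itgb6 were not called (adjusted p = 0.0512, 0.0653 and 0.803), though Lrrc32 was without the replicate block (0.0292) or replicate 2 (0.00641) and by DESeq2 (0.0165), and Gdf11 without replicate 2 (0.0239). Both were also called with filterByExpr (0.0476 and 0.0474) and in the fit of all 40 libraries (0.0146 and 0.0428).

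Of 13 receptors and co-receptors 3 rose and 6 fell (median -0.21). After GC correction 5 rose and 5 fell, and the median was 0.10. Tgfbr3 (betaglycan), a co-receptor that presents ligand, went from 175, 566, 192 and 194 to 14.0, 57.6, 11.8 and 12.9 CPM, with replicate 2 highest in both groups (-3.68 ± 0.13). Tgfbr2, the type II receptor, went from 631, 501, 659.6 and 578 to 358, 287, 229 and 220.1 CPM without overlap (-1.11 ± 0.14). Tgfbr1, the type I receptor, was at 68.3, 78.5, 69.2 and 74.7 CPM in CTRL and 55.2, 51.0, 59.6 and 84.5 CPM with TGFβ, overlapping ranges with an adjusted p of 0.206. Among the others, Bmpr1b (1.60 ± 0.18), Eng (endoglin, 0.89 ± 0.084) and Acvr1 (0.85 ± 0.069) rose. Acvr2b (-0.79 ± 0.20, adjusted p = 0.0619 without the block) and Acvr1b (-0.53 ± 0.14, 0.0751 without replicate 3 and 0.0533 without replicate 4) fell, as did Acvrl1 (-0.53 ± 0.14, adjusted p = 0.0649 to 0.115 without replicate 1, 3 or 4). Bmpr1a fell by 0.53 ± 0.085 in the fit, but the call ended after GC correction (-0.14, adjusted p = 0.226). Bmpr2 and Acvr2a were called after it (0.67 for both genes, adjusted p = 0.000663 and 0.0106), Bmpr2 also without replicate 2 (0.00807) or in the fit of all 40 libraries (0.0393), and Bambi, a decoy receptor, was called in neither (adjusted p = 0.753 and 0.632).

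Of 18 SMADs and feedback repressors 10 rose and 3 fell (median 0.29), and several inhibitors of the pathway were among the rises. Smad7, the inhibitory SMAD, was at 23.9, 13.0, 20.3 and 21.4 CPM in CTRL and 119, 75.0, 112 and 128 CPM with TGFβ (2.50 ± 0.08). Pmepa1, which sequesters SMADs, went from 214, 138, 168 and 168 to 1477, 1546, 1492 and 1507 CPM (3.18 ± 0.12), and its TGFβ libraries spanned no more than 1477 to 1546 CPM. Skil (SnoN), a repressor of SMAD target genes, rose by 1.83 ± 0.10, Spsb1, which marks the type II receptor for destruction, by 2.44 ± 0.091, and the ubiquitin ligase Smurf1 by 0.96 ± 0.11. Smad3 fell from 184, 274, 218 and 221 to 90.5, 101.04, 87.0 and 106 CPM (-1.18 ± 0.091), and Smad9 fell by 1.86 ± 0.21. Smad2 rose by 0.41 ± 0.082, and Smad4 was at 100.7 to 105 against 93.4 to 105 CPM (adjusted p = 0.575). Small rises were called for Tgif1 (0.50 ± 0.17), Smad6 (0.43 ± 0.09) and Usp15 (0.21 ± 0.072), the latter pair without a call when the block was left out (adjusted p = 0.208 and 0.103). Without replicate 1, 3 or 4, Tgif1 (adjusted p = 0.141 to 0.223) and Usp15 (0.102 to 0.17) were not called, nor was Tgif1 among protein-coding genes alone (0.0522). The rise of Ski (0.30 ± 0.068) and the fall of Smad5 (-0.21 ± 0.071) ended after GC correction (0.081 and -0.065, adjusted p = 0.406 and 0.522). Smad5 also lost its call without replicate 1, 3 or 4 (adjusted p = 0.0847 to 0.18). Smad1, Smurf2, Tgif2 and Rnf111 were not called (adjusted p = 0.0844 to 0.542), though Smurf2 was after GC correction (0.28, 0.0365) or without replicate 2 (0.0168).

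On the BMP side, 5 genes rose and 7 fell of 18 (median -0.14), the antagonists Fstl3 and Fst among the rises and the ligands Bmp2, Bmp4 and Bmp6 among the falls. Fstl3, which binds activin, was at 20.2, 8.95, 22.6 and 20.0 CPM in CTRL and 381, 238, 409 and 353 CPM with TGFβ (4.34 ± 0.12). The follistatin genes Fst and Fstl1 rose by 1.15 ± 0.10 and 1.37 ± 0.11. Bmp2 went from 18.1, 55.4, 22.7 and 19.6 to 2.30, 5.67, 2.601 and 3.56 CPM (-2.94 ± 0.14). Bmp4 fell by 0.98 ± 0.15 and Bmp6 fell by 0.56 ± 0.12, both with overlapping ranges, and neither was called without the replicate block (adjusted p = 0.13 and 0.385), nor was Bmp6 in the fit of all 40 libraries (0.0589). The modulators Chrdl1 and Twsg1 fell (-2.99 ± 0.54 and -0.94 ± 0.093), and the value of Chrdl1 was -4.16 without replicate 2. Id2 and Id1, inhibitors of helix-loop-helix factors that BMP signals raise, fell: Id2 from 46.2, 26.1, 29.1 and 30.4 to 5.98, 6.33, 4.53 and 6.45 CPM (-2.45 ± 0.15) and Id1 from 27.6, 26.8, 20.8 and 26.5 to 10.9, 17.8, 13.5 and 14.2 CPM (-0.84 ± 0.13). Id3 was called as a rise of 0.23 ± 0.076 in the fit and not after GC correction (0.011, adjusted p = 0.952), without the block (0.249), in the fit of all 40 libraries (0.25) or without replicate 1 (0.14) or 3 (0.157). Grem1, Chrd, Nog, Bmp5, Bmp7 and Id4 were not called (adjusted p = 0.451 to 0.897). Without replicate 2, Id4 (-1.07, adjusted p = 0.028) and Grem1 (-0.26, 0.0285) were called as falls.

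**Figure D3:**
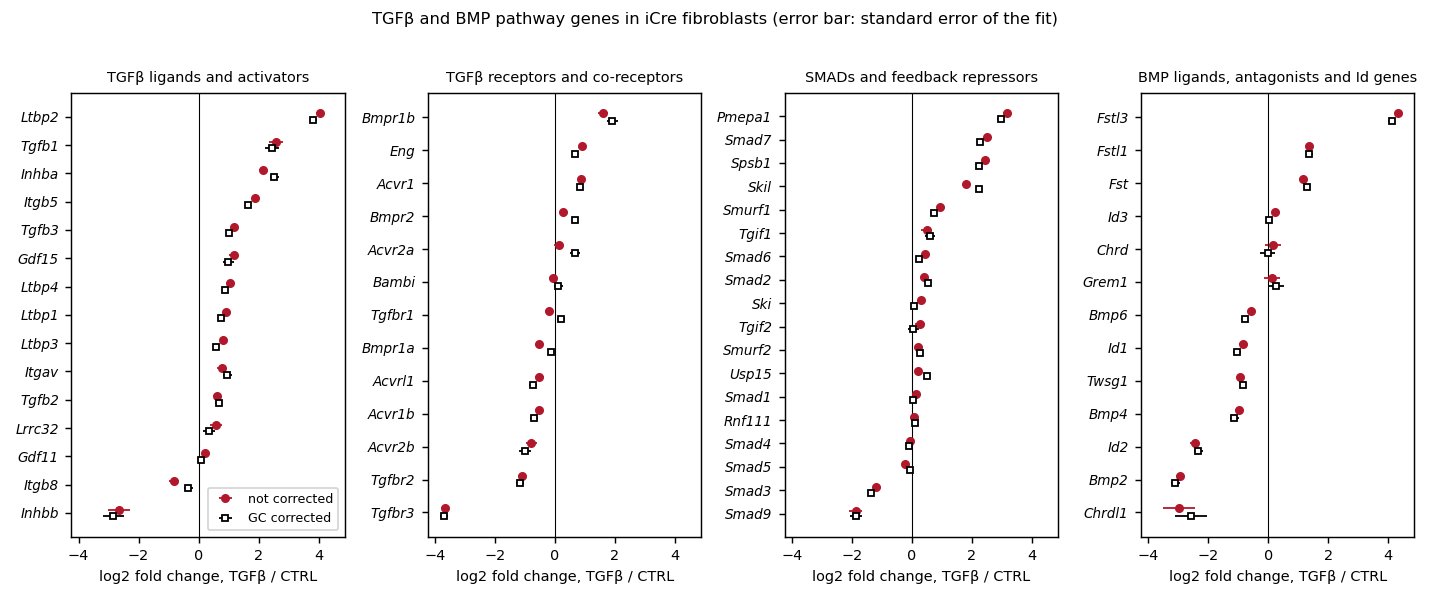
Log2 fold changes, TGFβ over CTRL, of the named TGFβ and BMP pathway genes that averaged at least 1 CPM in the 8 iCre libraries, without GC correction (filled red circles) and after GC correction (open squares), with approximate standard errors as bars. Ltbp2 (4.05), Fstl3 (4.34) and Pmepa1 (3.18) are far to the right and Tgfbr3 (-3.68) far to the left with or without the correction, whereas Itgb8, Bmpr1a and Bmpr2 shift to the right with it.

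Of 23 transcription factors tied to the myofibroblast state, 10 rose and 4 fell (median 0.39). Of the 22 at 1 CPM or more 63.6% were called, under the 70.2% of all genes at that level. Meox1, a homeobox factor of activated cardiac fibroblasts, was at 0.882, 1.74, 1.39 and 2.88 CPM in CTRL and 49.7, 29.7, 40.2 and 93.7 CPM with TGFβ (4.93 ± 0.22). Scx (scleraxis), a tendon factor that activates collagen genes, went from 1.48, 1.62, 2.37 and 2.14 to 10.2, 48.1, 19.8 and 13.6 CPM (3.42 ± 0.33). Srf, whose upstream letters stand above, went from 24.5, 28.4, 27.5 and 27.2 to 90.7, 81.6, 85.7 and 88.2 CPM (1.71 ± 0.088), with 4 TGFβ libraries within 81.6 to 90.7 CPM. Runx1 rose by 2.32 ± 0.26, Tead4, a partner of YAP, by 1.70 ± 0.14, and Nfatc1, a calcineurin target, by 1.55 ± 0.10.

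Genes that mark resting cardiac fibroblasts fell in 14 of 20 cases, with 3 rises and a median of -1.08. Without the replicate block, 9 fell. Pdgfra, the receptor that defines cardiac fibroblasts, was at 1239, 1878, 1157 and 1209 CPM in CTRL and 188, 496, 160.1 and 166 CPM with TGFβ. Replicate 2 was highest in both groups, and its TGFβ library still lay below every CTRL library (-2.56 ± 0.16). Cd34, a surface marker of resting stroma, went from 727, 302, 761 and 603 to 115, 47.5, 107 and 84.9 CPM (-2.72 ± 0.077), and Ly6a (Sca-1) from 261, 116, 309.9 and 338 to 61.8, 43.5, 69.9 and 72.7 CPM (-1.94 ± 0.14). Apod, a lipid-binding apolipoprotein, fell by 2.87 ± 0.28, and Wif1, a secreted WNT inhibitor, fell by 2.22 ± 0.30. Ddr2, a collagen receptor, fell by 0.58 ± 0.086. Thy1, a fibroblast surface marker outside that list, rose by 0.42 ± 0.083, a call lost after GC correction (0.20, adjusted p = 0.0706). Tcf21, a factor of the epicardial lineage, fell by 0.73 ± 0.18 with overlapping ranges and lost its call without the block (adjusted p = 0.268), without replicate 3 (0.0808) or without replicate 4 (0.0731).

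Of 25 chemokines 3 rose and 8 fell (median -0.31), a share of calls near that of all genes tested. Ccl17, a chemokine for CCR4, went from 0.189, 0.232, 0.361 and 0.402 to 21.5, 2.13, 14.0 and 17.0 CPM (5.45 ± 0.34), with replicate 2 far below the other TGFβ libraries. Cx3cl1 (fractalkine) rose by 1.91 ± 0.29 and Cxcl14 by 1.29 ± 0.28 (adjusted p = 0.0527 without replicate 3). The neutrophil chemokines Cxcl5 and Cxcl1 fell, Cxcl5 from 4.29, 21.9, 5.66 and 5.09 to 1.04, 2.20, 0.352 and 1.07 CPM (-2.84 ± 0.26) and Cxcl1 from 4.51, 3.88, 2.68 and 1.84 to 1.01, 0.805, 0.633 and 0.589 CPM (-2.03 ± 0.19). Cxcl10 fell by 1.46 ± 0.21 with overlapping ranges, and was not called without the block (adjusted p = 0.0531) or in the fit of all 40 libraries (0.178).

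Of 35 cytokines and growth factors of fibroblasts 16 rose and 9 fell (median 0.56). Il11, an IL-6 family cytokine with a role in fibrosis, was at 1.35, 3.62, 1.69 and 3.15 CPM in CTRL and 86.3, 74.9, 172 and 344 CPM with TGFβ (5.98 ± 0.38, or 6.59 without replicate 2). The related Il6 went from 1.54, 1.33, 1.35 and 2.68 to 43.2, 7.98, 31.0 and 36.2 CPM (4.05 ± 0.30, or 4.66 after GC correction) and Lif from 4.29, 6.54, 3.44 and 5.29 to 73.4, 61.2, 60.6 and 113 CPM (3.99 ± 0.19). Each of these cytokines had TGFβ libraries above all CTRL libraries. Hbegf, an EGF receptor ligand, rose by 4.88 ± 0.38 and Pdgfb, a mitogen of mesenchymal cells, by 4.11 ± 0.19. Ptn (pleiotrophin), a heparin-binding growth factor, fell from 754, 544, 556 and 475 to 29.0, 82.4, 22.6 and 16.8 CPM (-4.19 ± 0.36).

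Of 20 complement genes 12 fell, none rose and 8 were not called (median -0.97), and 9 fell without the replicate block. C1s1, a protease of the classical pathway, was at 366, 448, 314 and 299 CPM in CTRL and 39.0, 103, 37.9 and 51.3 CPM with TGFβ (-2.70 ± 0.17). C3, the central component, went from 482, 319.6, 442 and 519.7 to 235, 107, 139 and 189 CPM (-1.41 ± 0.11). C1ra (-2.07 ± 0.12), Cd55 (-1.82 ± 0.10) and Serping1 (-1.44 ± 0.13) fell too.

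Of 28 interferon-stimulated genes 21 fell, none rose and 7 were not called (median -1.20), and 12 fell without the replicate block. Ifit3, an antiviral protein, was at 118, 119.7, 151 and 191 CPM in CTRL and 6.07, 16.02, 15.0 and 29.9 CPM with TGFβ (-3.23 ± 0.23). In both groups replicate 4 was the highest and replicate 1 the lowest. Rsad2 (viperin) went from 7.15, 10.1, 12.4 and 22.0 to 0.692, 1.08, 1.30 and 2.52 CPM (-3.19 ± 0.12), and Gbp2, a guanylate-binding protein, from 77.9, 83.8, 103 and 111 to 8.93, 22.0, 9.77 and 14.3 CPM (-2.81 ± 0.22). Ifit3b, Ifit1 and Gbp3 fell (-3.16 ± 0.22, -2.68 ± 0.29 and -2.42 ± 0.23), and the close paralogs Ifit3 and Ifit3b may share reads, so their separate values are uncertain. All cells had received adenovirus, and no uninfected cells are among the samples used here.

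Of 22 genes for the TAK1 complex and its adaptors and kinases 6 rose and 3 fell (median 0.10). All averaged 1 CPM or more, and 40.9% were called, against 70.2% of all genes at that level. Map2k6, an activator of p38, went from 6.43, 8.72, 6.70 and 7.16 to 0.252, 1.54, 0.281 and 1.23 CPM (-3.14 ± 0.32). The adaptors that bind TAK1 parted, as Tab2 rose by 0.45 ± 0.067 and Tab3 fell by 0.92 ± 0.089. Chuk (IKKα) rose by 0.44 ± 0.10, and Map2k3 rose by 0.45 ± 0.12, a call lost after GC correction (0.24, adjusted p = 0.173) or without replicate 3 (0.0979) or 4 (0.0867). Xiap, an inhibitor of caspases with a GC content of 36.8%, fell from 106, 114, 103 and 103 to 44.0, 48.1, 42.7 and 44.1 CPM (-1.23 ± 0.07, but -0.32 after GC correction). Map3k7 itself was not called (0.21 ± 0.074, adjusted p = 0.0548), and it passed the threshold after GC correction (0.32, adjusted p = 0.00799), without replicate 2 (0.26, 0.00941), by DESeq2 (0.0454), with filterByExpr (0.0325) or in the fit of all 40 libraries (0.00282).

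Of 14 NF-κB subunits and feedback genes 3 rose and 4 fell (median -0.11), with 7 falls after GC correction. Of the 13 at 1 CPM or more 46.2% were called, also under the 70.2% of all genes at that level. Nfkbia, the inhibitor IκBα that NF-κB induces, went from 25.6, 25.7, 22.2 and 26.5 to 17.0, 14.1, 14.8 and 20.2 CPM (-0.58 ± 0.10), and Birc3 from 23.9, 22.8, 24.9 and 24.5 to 13.6, 12.1, 12.5 and 15.6 CPM (-0.82 ± 0.091). Nfkbiz fell by 0.76 ± 0.10 and Nfkbib rose by 0.70 ± 0.10. Tnfaip3 (A20), another feedback inhibitor, rose by 1.05 ± 0.16 with ranges of 7.33 to 18.3 and 16.8 to 37.8 CPM that overlapped. Among 25 immediate early genes and feedback genes of the ERK pathway 11 rose and 6 fell (median 0.25), with 6 rises after GC correction and 6 without the block. All 25 averaged 1 CPM or more, and 68% were called, near the 70.2% of all genes at that level. Myc went from 10.8, 20.5, 12.0 and 17.0 to 61.7, 56.1, 82.5 and 123 CPM (2.43 ± 0.22) and Junb rose by 1.45 ± 0.11. The ERK inhibitors Spry2 and Spred1 fell (-1.60 ± 0.22 and -1.30 ± 0.12).

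Lists of metabolic genes held mostly rises. Each of the 24 cholesterol synthesis genes rose, with a median of 2.26. Fdps, which makes farnesyl diphosphate, went from 10.6, 11.1, 14.5 and 21.1 to 129, 188, 169 and 147 CPM (3.53 ± 0.20), and its lowest TGFβ library lay far above its highest CTRL library. Cyp51, a sterol demethylase, rose by 3.18 ± 0.16.

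Of 24 genes for serine, glycine, folate and proline metabolism and amino acid supply 22 rose and 2 fell (median 2.65). Asns (asparagine synthetase) was at 21.4, 15.0, 22.1 and 42.1 CPM in CTRL and 346, 299, 379 and 409 CPM with TGFβ (3.95 ± 0.18). Mthfd2, the mitochondrial folate enzyme, went from 8.79, 4.17, 7.95 and 16.2 to 169, 168, 183 and 202 CPM (4.43 ± 0.25), and Slc7a5, a transporter of large neutral amino acids, from 32.2, 20.8, 30.2 and 52.9 to 554, 515, 588 and 612 CPM (4.16 ± 0.18). Replicate 4 had the highest CTRL level of all 3. Chac1, Aldh1l2 and Trib3, which belong to the amino acid stress response, rose by 4.72 ± 0.32, 4.07 ± 0.29 and 3.94 ± 0.48, the last by 4.54 without replicate 4. Slc38a2, an amino acid transporter, fell by 0.60 ± 0.065. Shmt1, the cytosolic serine hydroxymethyltransferase, fell by 0.81 ± 0.28, a call lost without the block (adjusted p = 0.0701), without replicate 2 (fold change -0.39, 0.109), replicate 1 (0.107), replicate 3 (0.0961) or replicate 4 (0.0617).

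Of 21 glycolysis genes 18 rose and 1 fell (median 1.61). Slc16a3, a lactate exporter, went from 15.2, 17.9, 24.8 and 27.1 to 196, 315, 274 and 337 CPM (3.76 ± 0.12) and Hk2 (hexokinase 2) from 10.3, 11.3, 8.56 and 13.7 to 107, 95.1, 88.9 and 128 CPM (3.29 ± 0.094). Ldha, Eno1 and Pgam1 rose by 2.12 ± 0.08, 2.18 ± 0.13 and 2.005 ± 0.077, and Aldoc rose by 2.38 ± 0.42 with overlapping ranges (1.56 without replicate 2). Eno2 (neuronal enolase) fell from 32.8, 43.0, 29.7 and 28.6 to 15.3, 22.6, 14.2 and 13.4 CPM (-1.02 ± 0.083). Genes for folding in the endoplasmic reticulum rose in 24 of 26 cases (median 1.32), among them Hyou1 (2.31 ± 0.14), Pdia5 (2.29 ± 0.085), Herpud1 (2.10 ± 0.13), Manf (2.10 ± 0.19), Creld2 (1.85 ± 0.19) and Creb3l1 (1.82 ± 0.087). The 2 called as falls were Dnajb9, at 49.3, 57.0, 49.8 and 58.1 CPM in CTRL and 38.9, 38.6, 33.7 and 41.9 CPM with TGFβ, and Ero1lb, and both calls ended after GC correction (fold changes of -0.46 and -0.39 in the fit, 0.00027 and -0.23 after it, adjusted p = 1 and 0.163). Ero1lb was also not called without the block (0.358) or without replicate 1, 3 or 4 (0.0816 to 0.104).

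Genes for ribosomes, respiration and the cell cycle had lower list medians. Of 47 cytosolic ribosomal protein genes 45 rose (median 0.49), such as Rpl27 from 53.3, 66.9, 71.3 and 72.6 to 116, 102.4, 124 and 137 CPM (0.89 ± 0.10), Rplp1 (0.74 ± 0.091), Rpl38 (0.73 ± 0.075) and Rps16 (0.69 ± 0.091). These genes have many processed pseudogenes, so reads may be shared with near-identical copies. Of 31 nuclear genes for oxidative phosphorylation 21 rose and none fell (median 0.42). Cycs (cytochrome c) went from 6.24, 7.53, 6.23 and 8.90 to 33.1, 28.8, 39.8 and 38.6 CPM (2.31 ± 0.14), Cox6a1 rose by 1.34 ± 0.07 and Atp5b by 1.03 ± 0.083. Of 32 DNA replication and mitosis genes 23 rose and none fell (median 0.80), against 13 rises without the replicate block, and 26 rises and 2 falls after GC correction. Tyms (thymidylate synthase) went from 10.6, 10.4, 11.3 and 12.0 to 40.0, 20.3, 43.1 and 38.6 CPM (1.66 ± 0.17), and Mcm2, a subunit of the replicative helicase, from 9.23, 11.7, 10.7 and 13.0 to 20.6, 19.9, 30.6 and 39.8 CPM (1.30 ± 0.14). Ccne2 (cyclin E2) rose by 1.70 ± 0.23, or 2.67 after GC correction. Aurka and Plk1, kinases of mitosis, rose by 1.53 ± 0.15 and 1.44 ± 0.13 with overlapping ranges (1.80 to 8.17 against 6.44 to 18.7 CPM for Plk1), and all 4 pairs were higher with TGFβ.

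Of 24 prostaglandin enzymes and receptors 6 rose and 9 fell (median -0.51). Of the 16 at 1 CPM or more 68.8% were called, near the 70.2% of all genes at that level. Ptgs2 (COX-2), the inducible cyclooxygenase, was at 14.8, 31.6, 21.2 and 29.9 CPM in CTRL and 393, 684, 684 and 725 CPM with TGFβ (4.72 ± 0.12). Pla2g4a, the phospholipase that releases arachidonic acid, rose by 1.66 ± 0.077. Ptgfr, the prostaglandin F receptor, fell from 13.6, 44.6, 17.7 and 22.4 to 1.04, 2.83, 1.69 and 1.18 CPM (-3.82 ± 0.16), and Ptgir, the prostacyclin receptor, fell by 2.14 ± 0.094. Of 30 oxidase and antioxidant genes 9 rose and 6 fell, and of the 25 at 1 CPM or more 56.0% were called, against 70.2% of all genes at that level. Their median of 0.13 turned to -0.027 after GC correction. Nox4, a NADPH oxidase known as a TGFβ target, went from 13.4, 12.3, 14.0 and 10.9 to 75.5, 59.4, 68.4 and 77.2 CPM (2.49 ± 0.11, or 3.26 after GC correction), and Cat (catalase) fell from 183, 190.3, 221 and 187 to 93.8, 88.1, 116 and 112 CPM (-0.91 ± 0.08). The glutathione transferases Gsta4 and Gsta3 fell (-2.21 ± 0.30 and -1.72 ± 0.18), and as members of a multigene family they may share reads. Of 14 hyaluronan genes 5 rose and 3 fell (median 0.19), with Has2, a hyaluronan synthase, at 10.2, 5.88, 10.7 and 16.1 CPM in CTRL and 36.1, 36.6, 43.6 and 62.4 CPM with TGFβ (2.12 ± 0.14) and Has1, another synthase, with a rise of 1.19 ± 0.19. Of the 10 hyaluronan genes at 1 CPM or more 70% were called, near the share of all genes at that level.

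Among surface and guidance genes, 8 of 15 integrin subunits rose and 4 fell (median 0.52). Itga5, the fibronectin receptor chain, went from 149, 160.2, 142 and 177 to 1157, 1067, 1369.7 and 1750.1 CPM (3.09 ± 0.11) and Itga11, a collagen receptor of myofibroblasts, from 58.6, 17.0, 36.0 and 41.8 to 419, 256, 389.8 and 490.4 CPM (3.45 ± 0.16). Itga4 and Itga9 rose by 2.59 ± 0.21 and 1.998 ± 0.12, and Itgb4 fell by 1.76 ± 0.26. Itga8 was at 42.0, 131, 19.8 and 14.7 CPM in CTRL and 3.30, 155, 2.39 and 1.47 CPM with TGFβ, so that it was lower with TGFβ in replicates 1, 3 and 4 and higher in replicate 2. Its fold change of -2.17 ± 0.64 became -3.35 without replicate 2, and it lost its call without the block (adjusted p = 0.888), in the fit of all 40 libraries (0.0617) or without replicate 1, 3 or 4 (0.109 to 0.126). Of 31 axon guidance genes 8 rose and 15 fell (median -0.27), such as the rises of Plxna4 (3.27 ± 0.086) and Unc5b (2.23 ± 0.16) and the falls of Sema5a (-2.67 ± 0.11) and Unc5c (-2.49 ± 0.21). Sema3c, a semaphorin, likewise stood apart in replicate 2, with 12.9, 123, 15.4 and 10.8 CPM with TGFβ against 126 to 197 CPM in CTRL, -2.79 ± 0.62 in the fit and -3.61 without replicate 2, and it was not called without replicate 1 (adjusted p = 0.0518), replicate 3 (0.0585) or the block (0.0635). Of 27 WNT ligands and antagonists 7 rose and 8 fell (median -0.099, or -0.31 with 11 falls after GC correction), and of the 23 at 1 CPM or more 60.9% were called, against 70.2% of all genes at that level. Wnt1, described above, is not in this list. Wnt2 went from 2.55, 0.840, 1.37 and 2.34 to 15.0, 7.03, 10.5 and 11.1 CPM (2.69 ± 0.16), Wnt9a, Wnt10b and Wnt11 rose by 2.06 ± 0.20, 2.10 ± 0.24 and 2.44 ± 0.39, and Sfrp2, a secreted antagonist, fell by 2.52 ± 0.16 with overlapping ranges.

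Some genes listed as markers of other cell types changed too. Cspg4 (NG2), a pericyte marker, was at 41.8, 28.2, 31.1 and 37.8 CPM in CTRL and 513, 279, 518 and 542 CPM with TGFβ (3.73 ± 0.13), and Pdgfrb rose by 1.47 ± 0.12, while Kcnj8 and Abcc9 fell (-1.56 ± 0.22 and -1.63 ± 0.22). Of the 7 pericyte markers tested 2 rose and 2 fell, and their summed level was 769 to 1503 CPM in CTRL and 1791 to 3155 CPM with TGFβ. Ncam1, listed as a neural marker, went from 14.8, 20.7, 22.3 and 15.7 to 332, 286, 310.2 and 319 CPM (4.12 ± 0.14), while Sox10, which defines Schwann cells, stayed at or below 0.174 CPM. The whole list of 6 Schwann and neural markers summed to 26.2 to 35.9 CPM in CTRL and 306 to 344 CPM with TGFβ. The part of such cells in these values was not tested.

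To learn whether TGFβ acted differently in cells that kept TAK1, the effect in iCre fibroblasts was set against that in LacZ fibroblasts. TGFβ changed 10928 genes in LacZ cells (43.3%), and 8142 genes changed in the same direction with either virus, which is 76.4% of the calls in iCre and 74.5% of those in LacZ cells. Another 168 were called in opposite directions, 149 of them as falls in iCre and rises in LacZ cells. These calls are without GC correction. In the fifth of genes with the lowest GC content the median fold change was -0.28 in iCre (0.13 after correction) and 0.083 in LacZ cells. The part of GC content in the opposite calls was not tested. Across 12179 protein-coding genes that averaged 1 CPM or more, the fold changes had a Pearson correlation of 0.92, a description across genes, which are not independent replicates. For Acta2, Col1a1 and Ccn2 no difference was called: the fold change of Acta2 was 5.21 in iCre and 4.43 in LacZ cells (difference 0.67 ± 0.34, adjusted p = 0.298), that of Col1a1 2.61 and 2.14 (0.41 ± 0.20, 0.263) and that of Ccn2 4.89 and 5.55 (-0.68 ± 0.32, 0.251). These differences missed the threshold, which does not show that the effects were equal.

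The difference between the effects of TGFβ with iCre and LacZ virus was called for 2056 genes (8.16%), 623 with a higher value in iCre and 1433 with a lower one. After GC correction 652 were called (2.61%), 309 higher and 343 lower, and 431 genes were called both ways with the same sign. The difference followed GC content, with a median of -0.42 in the fifth of genes with the lowest GC content and 0.22 in the fifth with the highest, and Spearman's rank correlation across 12177 genes was 0.56 (a description). The genes named next were also called after the correction unless stated. Eln rose more in iCre than in LacZ cells (8.37 against 6.34), a difference of 2.01 ± 0.31 (adjusted p = 0.000741, and 0.00735 after GC correction). Its CTRL level was 46.7 to 163 CPM in iCre and 106 to 361 CPM in LacZ cells, and its TGFβ level 19617 to 29382 and 10860.0 to 18197 CPM. Tagln (1.14 ± 0.22, adjusted p = 0.00479, GC-corrected 0.0306), Col5a2 (0.87 ± 0.14, 0.00129 and 0.00773) and Fdps (1.19 ± 0.24, 0.00526 and 0.0249) also rose more in iCre cells. Without replicate 3 the difference for Fdps was not called (adjusted p = 0.0792), nor was that for Tagln without replicate 4 (0.0532), and those for Tagln (0.0979) and Eln (0.0681) were not called without the replicate block. Saa3, an acute-phase protein, rose in iCre cells (1.55, 0.418 to 1.45 CPM in CTRL and 1.47 to 3.05 CPM with TGFβ) and fell in LacZ cells (-0.76, adjusted p = 0.0303), a difference of 2.32 ± 0.48 (adjusted p = 0.00711, GC-corrected 0.0196, 0.134 without the block). The other positive differences of the 5 largest, among called protein-coding genes averaging at least 1 CPM, were those of Gm11361 (2.07 ± 0.40), Sept4 (2.13 ± 0.60) and Hey1 (2.12 ± 0.60). Gm11361 was not called without replicate 3 (adjusted p = 0.0951). Sept4 and Hey1 were not called after GC correction (0.105 and 0.0981), without the block (0.146 and 0.306), without replicate 3 (0.0611 and 0.355) or without replicate 4 (0.238 for both), and Sept4 was not called without replicate 1 (0.214). The difference for Hey1 was 1.39 without replicate 3 and 2.88 without replicate 1.

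Lower in iCre than in LacZ cells, also after GC correction, were the effects on Itgb8 (fold changes -0.81 and 1.16, difference -1.99 ± 0.25, adjusted p = 0.000125, GC-corrected 0.0058), Spred1 (-1.30 and 0.11, -1.45 ± 0.18, 0.000129 and 0.00937), Tgfbr2 (-1.11 and -0.46, -0.67 ± 0.16, 0.0169 and 0.0318) and Bmpr1a (-0.53 and 0.27, -0.82 ± 0.10, 0.000116 and 0.0309). For Tgfbr2 the difference was not called without replicate 3 (adjusted p = 0.161), replicate 4 (0.213) or the block (0.119). Itgb8 was at 24.3 to 29.0 CPM in LacZ CTRL and 39.9 to 68.0 CPM in LacZ TGFβ libraries. Ptgs2 rose with either virus, by 4.72 in iCre and 5.85 in LacZ cells, and its difference of -1.13 ± 0.24 was not called after GC correction (-0.62, adjusted p = 0.237). The 5 largest negative differences, by the same limits, were all of genes of low GC content (34.6% for Zfp979 and 35.4% for Zfp758): Zfp808 (-2.98 ± 0.47, GC-corrected -2.09, and -3.65 without replicate 2), Zfp979 (-2.78 ± 0.24, -1.68), Gm3604 (-2.67 ± 0.44, -1.76), Gm13212 (-2.62 ± 0.39, -1.65) and Zfp758 (-2.53 ± 0.17, -1.53). Zfp758, for instance, went from 14.3, 13.6, 12.4 and 13.6 to 1.64, 2.24, 2.11 and 1.28 CPM in iCre cells, -2.88 in the fit and -1.81 after GC correction. Zinc-finger genes of this family have many close copies, so reads may be shared and these values are uncertain.

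**Figure D4:**
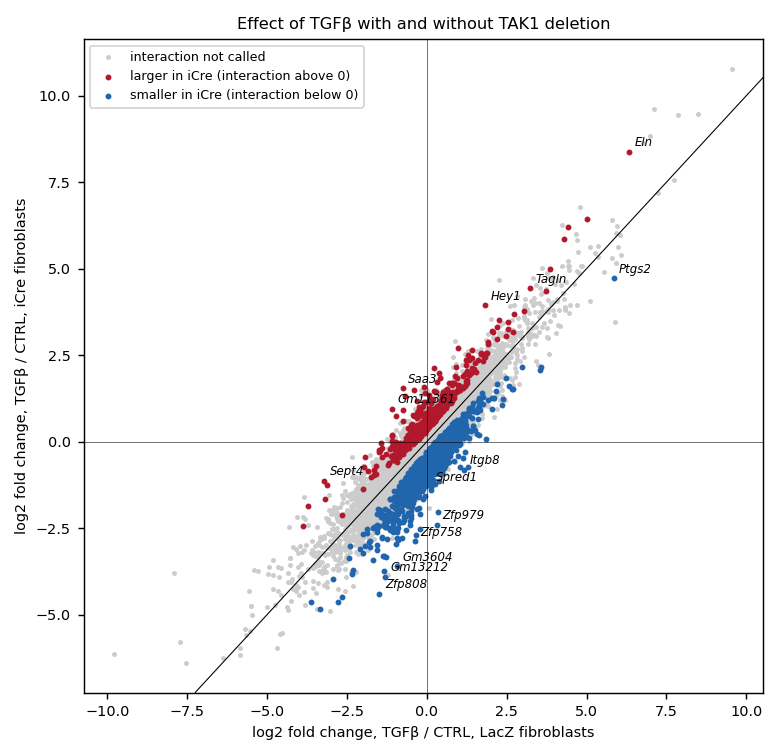
Log2 fold change with TGFβ in iCre fibroblasts against that in LacZ fibroblasts, 1 point per protein-coding gene with a mean of at least 1 CPM, with the line of equality. Red and blue points are genes whose difference was called as higher or lower in iCre cells (Pearson correlation 0.92 over all 12179 genes), such as Eln (8.37 and 6.34) and Itgb8 (-0.81 and 1.16).

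**Figure D5:**
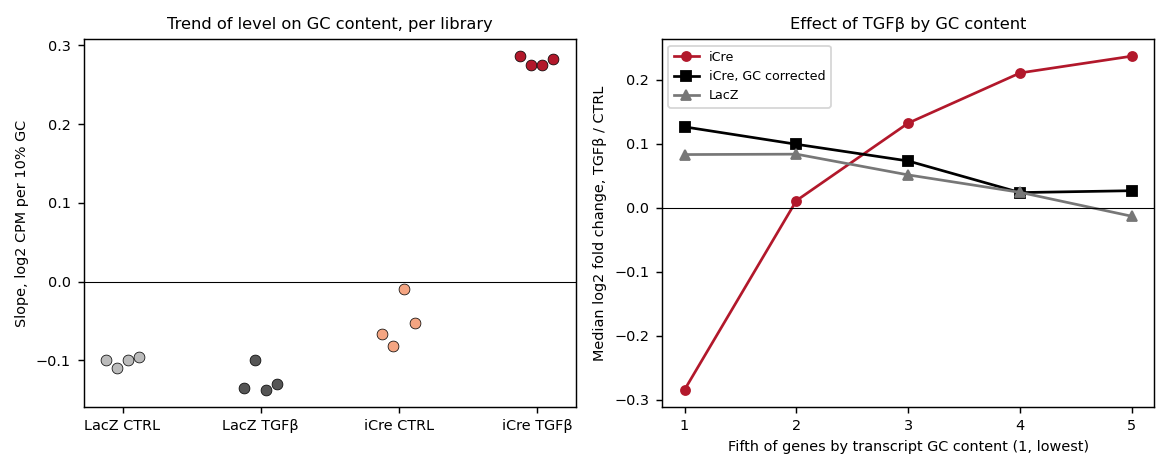
Left, slope of log2 CPM on transcript GC content per 10% GC in each of 16 libraries by group. Right, median log2 fold change with TGFβ in 5 equal bins of genes ordered by GC content, for iCre cells (red), iCre cells after GC correction (black) and LacZ cells (grey). The iCre TGFβ libraries stand alone at 0.27 to 0.29, and the iCre medians climb from -0.28 to 0.24 over the 5 bins, against 0.083 to -0.013 in LacZ cells.

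DNA replication genes, cholesterol synthesis genes and ribosomal protein genes showed list medians that differed between the viruses, 0.80 in iCre against 0.044 in LacZ cells, 2.26 against 1.65 and 0.49 against 0.17. The median difference per gene was 0.64, 0.58 and 0.32, and 0.64, 0.61 and 0.24 after GC correction, against 0.038 and 0.010 over all genes tested. The differences for fibrillar collagens (0.54, or 0.31 after GC correction), the synthesis of serine, glycine and proline (0.40 and 0.30) and chemokines (0.31 and 0.35) also exceeded 0.3, and that for contractile genes was 0.11 and -0.0014. Marker lists of endothelial cells (0.36 and 0.38), leukocytes (0.38 and 0.32), pericytes (0.33 and 0.25) and cardiomyocytes (1.10 and 1.01) lay above 0.3 before correction as well. Others of that size lay below 0: TGFβ receptors (-0.45 and -0.33, with list medians of -0.21 in iCre and 0.27 in LacZ cells), immediate early and ERK feedback genes (-0.36 and -0.59, with 0.25 and 0.71), axon guidance genes (-0.33 and -0.30) and proteoglycans (-0.32 and -0.11). These are descriptions of the lists without a test. Gene by gene, a difference was called for 6 of 32 DNA replication, 10 of 24 cholesterol, 9 of 47 ribosomal protein and 0 of 25 chemokine genes. After GC correction these counts were 2, 6, 5 and 0.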

How the data were processed

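RNA of 16 of the 40 libraries was analysed in the main fits, and all 40 entered the count filter and an alternative fit. The authors deposited raw counts of reads per gene, not normalised, made per the submitters' processing notes with STAR and HTSeq 0.10.0 on mm10 (GRCm38), with read quality checked by FastQC 0.10.1. Reads were single-end. Neither the strand setting of the counting nor its annotation release is stated (not given in the sources used here), and the library kit is given as NEBNext Ultra II by the labels and as TruSeq Stranded by the study's methods, so antisense and overlapping genes may share reads.

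From the counts, genes with a total of at least 10 over the 40 libraries were kept, TMM factors computed and edgeR 4.0.16's quasi-likelihood test (R 4.3.3) fitted to the 8 iCre libraries with the replicate number as a block, with Benjamini-Hochberg adjusted p of at most 0.05. LacZ libraries were fitted likewise, and the difference of effects in 1 fit over 16 libraries. The comparison was defined as paired by the labels' replicate numbers. Same-numbered iCre libraries deviated together (r = 0.41 to 0.65 over the 4 pairs, against -0.46 to 0.42 for different numbers, genes of at least 10 CPM). These ranges overlap, since iCre TGFβ replicate 3 had r = 0.418 with CTRL replicate 4 and 0.409 with CTRL replicate 3. The GC correction entered as an offset, in each library, a spline (5 degrees of freedom) on GC content of the deviation of log2 CPM from the gene's mean, estimated on genes averaging 1 CPM or more. GC content and gene positions came from GENCODE M21. The fits were tested on simulated data. CPM values use TMM factors of the 16 libraries. Standard errors are approximate, worked back from the fitted log2 fold change and the F statistic of its test. Depth was at least 25360947 counts per library, and the floor of 3 counts covers counting error only.

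The members, gene lists and named-gene rule were chosen with earlier results of these data known. The rule named Map3k7, up to 6 members of each list with the largest absolute fold change and a mean of at least 1 CPM, all members of the TGFβ ligand, receptor, SMAD and BMP lists, the 10 largest rises and falls, the 5 largest differences each way and cell type markers. Rises and falls were ranked among called protein-coding genes that averaged 1 CPM or more over the 8 iCre libraries, with groups that did not overlap and 1 direction in all 4 pairs (7065 genes), and differences among called protein-coding genes at that level. Some genes that it names are not reported here. Members named outside it, such as Mylk, Synpo2, Adamts14, Col3a1, Shmt1, Slc38a2, Eno2, Dnajb9 and Ero1lb, were chosen after their values were seen. Alternatives were no block, GC correction, DESeq2 1.42.0, RLE normalisation, other filters, protein-coding genes alone, all 40 libraries, a fold limit of 1 on the log2 scale and leaving out each replicate. Leaving out replicates for the LacZ comparisons, for Map3k7 and for the differences of named genes was added after seeing the data. Figures used matplotlib 3.10.9 and tables pandas 2.3.3.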

Additional observations from a re-analysis of the deposited data

Results flagged for a closer look

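In 58 of the 514 groups of 4 iCre libraries checked for the named genes, 1 library lay apart from the others by a gap wide for the group's range (Dixon's 95% limit), which chance gives in about 1 group of 20. Of these, 38 were in replicate 2, 15 in replicate 1, 2 in replicate 3 and 3 in replicate 4, and 32 were in CTRL and 26 in TGFβ. Values are in CPM, each against the nearest other library. Whether replicate 2 differed in cell source or handling was not tested.

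In CTRL, replicate 2 was the highest for Mylk (75.6 against 13.0), Col12a1 (201 against 74.5), Ccn4 (35.8 against 18.04), Inhbb (119 against 40.2), Mstn (0.0869 against 0) and Tgfbr3 (566 against 194). Replicate 2 of CTRL also stood above the others for Bmp2 (55.4 against 22.7), Pdgfra (1878 against 1239), Apod (69.6 against 19.7), Cxcl5 (21.9 against 5.66), C1qtnf3 (1.13 against 0.441) and Adh1 (36.7 against 3.72). Further CTRL values that were highest in replicate 2 were those of Cyp2f2 (10.2 against 0.475) and Bmp7 (0.405 against 0.0380). In CTRL, replicate 2 was the lowest for Loxl4 (19.6 against 46.2), P4ha2 (20.4 against 35.2), Fgf21 (0 against 0.0630), Ctsw (0 against 0.0570), 1110032F04Rik (1.30 against 3.45) and Fstl1 (1289 against 2091). In TGFβ, replicate 2 was the highest for Mylk (42.5 against 3.11), Col8a2 (127 against 45.4), Col12a1 (3175 against 866), Ogn (121 against 22.7), Mstn (5.42 against 0) and Tgfbr3 (57.6 against 14.0). Replicate 2 of TGFβ also stood above the others for Bmpr1b (19.6 against 12.8), Pdgfra (496 against 188), Itga8 (155 against 3.30), Sema5a (52.1 against 28.9), Sema3c (123 against 15.4) and C1qtnf3 (2456 against 82.2). Further TGFβ values that were highest in replicate 2 were those of Fgf21 (35.0 against 23.4), Aldoc (37.4 against 6.05), Sox10 (0.0700 against 0) and Grem1 (962 against 193). In TGFβ, replicate 2 was the lowest for Rplp1 (990.2 against 1282) and Cspg4 (279 against 513).

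In CTRL, replicate 1 was the highest for Col5a2 (1743 against 1124), Col8a2 (1.20 against 0.645), Eln (163 against 65.1), Tnxb (222 against 96.8), Sept4 (6.21 against 2.55) and Hey1 (0.599 against 0.145). Replicate 1 of CTRL also stood above the others for Rnf111 (59.8 against 54.4). In CTRL, replicate 1 was the lowest for Gm11361 (0.693 against 0.985) and Aldoc (0.504 against 2.21). In TGFβ, replicate 1 was the highest for Tnxb (11.9 against 6.37) and Clec3b (1.64 against 0.211). In TGFβ, replicate 1 was the lowest for Ptgs2 (393 against 684), Pla2g4a (131 against 219), Tead4 (5.51 against 7.14) and Adam12 (172 against 233).

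In CTRL, replicate 3 was the lowest for Id1 (20.8 against 26.5). In TGFβ, replicate 3 was the highest for Itgb6 (0.211 against 0.0350).

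In CTRL, replicate 4 was the highest for Il6 (2.68 against 1.54) and Creld2 (62.0 against 30.0). In TGFβ, replicate 4 was the lowest for Col1a1 (19178 against 23456).

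For 47 named genes the effect of TGFβ differed between iCre and LacZ fibroblasts by the test of the difference in edgeR's fit (adjusted p of at most 0.05), and 18 of these were also called after GC correction. Of the 47 calls, 23 were lost without the replicate block, and 7, 3, 27 and 24 without replicates 1, 2, 3 and 4. Among the 18 were Sema5a, lost without the block (adjusted p = 0.413), replicate 3 (0.0772) or replicate 4 (0.0624), Cd55, lost without the block (0.202) or replicate 4 (0.0685), and Smad4, lost without the block (0.0665) or replicates 2 (0.171), 3 (0.249) or 4 (0.101). Each value is the iCre effect minus the LacZ effect on the log2 scale, with the GC-corrected value after it. Called also after GC correction and higher in iCre was the effect on Saa3 (2.32, 2.32), Gm11361 (2.07, 1.94), Eln (2.01, 1.77), Fdps (1.19, 1.10), Tagln (1.14, 0.98) and Col5a2 (0.87, 0.82). Called also after GC correction and lower in iCre was the effect on Zfp808 (-2.98, -2.09), Zfp979 (-2.78, -1.68), Gm3604 (-2.67, -1.76), Gm13212 (-2.62, -1.65), Zfp758 (-2.53, -1.53), Itgb8 (-1.99, -1.52) and Spred1 (-1.45, -1.06). The others of these were Cd55 (-0.93, -0.70), Bmpr1a (-0.82, -0.44), Sema5a (-0.69, -0.58), Tgfbr2 (-0.67, -0.72) and Smad4 (-0.38, -0.42). Not called after GC correction were the positive differences of Sept4 (2.13, 1.93), Hey1 (2.12, 1.96), Col7a1 (1.20, 0.94), Itga11 (0.91, 0.70), Pdia5 (0.73, 0.56), Rplp1 (0.65, 0.43) and Timp1 (0.65, 0.48). Smaller positive differences without a call after it were those of Rpl27 (0.64, 0.43), Cox6a1 (0.62, 0.36), Fstl3 (0.56, 0.34), Col5a1 (0.54, 0.31), Pdgfrb (0.50, 0.29), Ltbp4 (0.45, 0.19) and Pmepa1 (0.44, 0.24). Not called after GC correction either were the negative differences of Ogn (-1.76, -0.87), Ptgfr (-1.58, -1.14), Lum (-1.15, -0.82), Ptgs2 (-1.13, -0.62), Xiap (-0.94, -0.090), Inhba (-0.85, -0.47) and Dnajb9 (-0.78, -0.33). Smaller negative differences without a call after it were those of Bmpr2 (-0.74, -0.33), Tab3 (-0.72, -0.35), Skil (-0.68, -0.27), Pla2g4a (-0.54, -0.35), Slc38a2 (-0.49, -0.33), Chuk (-0.48, -0.094), Smad5 (-0.42, -0.26) and Map3k7 (-0.40, -0.26). In the 4 iCre TGFβ libraries log2 CPM rose with GC content, with a slope of 0.274 to 0.286 per 10 percentage points, against -0.138 to -0.00951 in the other 12 libraries, and its part in these differences beyond the corrected values was not tested.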

How the results depend on the processing

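With the replicate number as a block 5207 genes rose and 5455 fell with TGFβ in iCre fibroblasts, and without the replicate block 4839 rose and 5001 fell. GC correction with the block gave 5236 and 5222, DESeq2 gave 5105 and 5365, and leaving out each replicate gave 8452 to 11102 calls in all. A fold limit of 1 on the log2 scale left 5045 calls, 2001 higher and 3044 lower.

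The difference between iCre and LacZ depended more on the processing. The blocked fit called 2056 genes (623 higher and 1433 lower in iCre). Without the block there were 1154 (236 and 918), with GC correction and the block 652 (309 and 343), and with the fold limit 423 (106 and 317). DESeq2 called 3317, of which 1402 were higher, and edgeR's filterByExpr gave 1146 higher. Leaving out a replicate gave 752 to 2222 calls, 89 to 808 higher and 661 to 1414 lower, and the lowest totals were without replicate 3 (752) and replicate 4 (908). The cause was not tested.

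Map3k7 in CTRL was lower in iCre than in LacZ (-0.28 on the log2 scale), a call lost without the block (-0.28, adjusted p = 0.126), without replicate 3 (-0.26, 0.0867) and without replicate 4 (-0.26, 0.0857), with values from -0.28 to -0.25 over the replicates left out. Grem1, not called with all replicates, turned from 0.14 to -0.26 without replicate 2 (-0.26 to 0.32 over the replicates left out), and Dnajb9 reached 0.00027 after GC correction. Of the list counts, 15 moved by over 1.5 times and 117 did not. Libraries of at least 25360947 counts limit precision mainly for genes near 3 counts.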
